A study of Mus musculus with 11 samples.

Results

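The comparison described here sets retinas with conditional loss of Six3 (Six3KO, 3 libraries) against control retinas (WT, 3 libraries), that is 6 of the 11 libraries of the series. Libraries were taken by their column names in the deposited count table. All were RNA from pairs of retinas of NMRI mouse embryos at E13.5, and dams had received 0.15 mL of tamoxifen at 20 mg/mL at E10.5 and again at E11.5. WT embryos were Six3F/F; Six6+/+, so they carried the floxed Six3 alleles and saw tamoxifen, but had no Cre. Six3KO embryos were Six3F/F; CAGGCre-ERTM; Six6+/+. CAGGCre-ERTM is a broadly active transgene, and its product is a Cre recombinase fused to a tamoxifen-binding part of the mouse estrogen receptor. Cre was present in Six3KO and absent from WT, so loss of Six3 and the presence of active Cre cannot be told apart here. A further 2 groups served for comparison. Six6KO (Six3F/F; Six6–/–, 2 libraries, no Cre) and DKO (Six3F/F; CAGGCre-ERTM; Six6–/–, 3 libraries) differ from each other by the same Cre and Six3 loss.

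Six3 is a homeodomain transcription factor of the eye field, the optic vesicle and the dividing progenitor cells of the retina. It can repress transcription with Groucho-type partners, and in the forebrain it is known to restrain Wnt signalling and to act upstream of Sonic hedgehog. Six6 is its closest relative and is made in the same progenitors. At E13.5 the mouse retina consists mostly of dividing progenitors, with ganglion cells and the first cones, horizontal and amacrine cells being born.

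Counted reads ran from 7807744 to 12505379 per WT library and from 9786661 to 16403191 per Six3KO library. Levels below are in CPM (counts scaled by library depth) after TMM scaling of library sizes, and log2 fold changes are Six3KO minus WT with their standard error. Retinal progenitor genes marked every library as retina. Rax stood at 151, 205 and 202 CPM in WT and at 212, 225 and 98.8 CPM in Six3KO, and Pax6 at 576, 816 and 769 CPM against 744, 801 and 567 CPM. Tissue from around the retina differed between libraries of the same group. Lens genes took 0.00857, 0.0251 and 0.164% of the reads in the WT libraries rh016, rh023 and rh024. They took 0.0358% in the Six3KO library rh006, but 2.63% in rh012 and 2.22% in rh026. Summed mesenchyme genes ran from 750 to 3610 CPM in WT and from 868 to 5926 CPM in Six3KO. The lowest values were in rh023 and rh012, and the highest was in rh026. These shares cannot be separated from the amount of RNA per cell, since fewer cells of a type and less RNA per cell look alike in bulk tissue.

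Six3 RNA was lower in every Six3KO library than in every WT library. The Six3 gene lies on the plus strand of chromosome 17 (GRCm38), from 85613608 to 85629302. Its level was 164, 299 and 223 CPM in WT and 73.8, 75.9 and 30.3 CPM in Six3KO. The groups did not overlap, and the highest Six3KO library held less than the lowest WT library. The log2 fold change was -1.93 ± 0.43, with an unadjusted edgeR p of 0.00133 that did not pass after adjustment over all genes. Six3 fell in both DESeq2 fits, with an adjusted p of 0.00336 on all 11 libraries and 0.000363 on the 6 libraries alone. The count is over the whole gene and does not separate the floxed part from the rest. Six3os1, a noncoding gene on the opposite strand (85600651 to 85618398, minus strand), stood higher, at 396, 713 and 595 CPM in WT and 1216, 1449 and 819 CPM in Six3KO. Its groups did not overlap either, and its log2 fold change was 1.03 ± 0.28, with an unadjusted edgeR p of 0.00436. Six3os1 shares exonic bases with Six3, and without a stated strand setting the reads there cannot be assigned to either gene.

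Six6 showed no such step. It stood at 225, 340 and 277 CPM in WT and at 335, 339 and 168 CPM in Six3KO, and the ranges overlapped. The difference was smaller than the spread between libraries, with a standard error of 0.34 on the log2 scale and an estimate between -0.15 and 0.34 over the alternatives run. Esr1, the estrogen receptor gene (chromosome 10, 4611593 to 5005614, plus strand), rose in Six3KO. It stood at 0.625, 0.347 and 0.382 CPM in WT and at 53.9, 52.0 and 57.1 CPM in Six3KO (log2 fold change 6.81 ± 0.26, edgeR adjusted p = 2.9e-06). The transgene contains part of this gene, and Esr1 passed the filter on low counts only through libraries with Cre. It therefore had to differ, and its values and adjusted p are a description alone. Esr1 reads were alike in the 3 Six3KO libraries, while Six3 stood lower in rh026 than in rh006 and rh012.

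**Figure D1:**
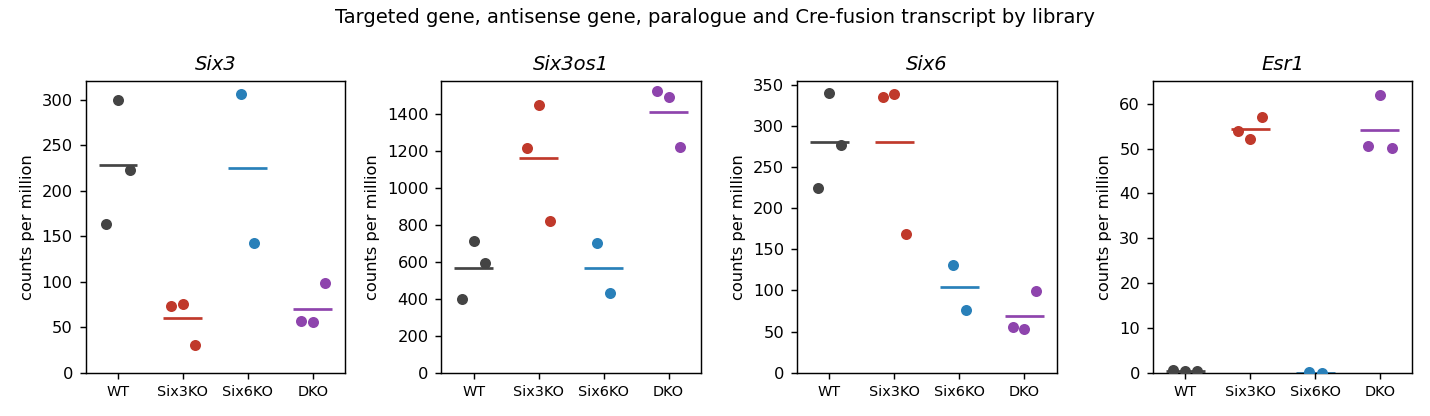
CPM of Six3, Six3os1, Six6 and Esr1 in each library (points) with the group mean (line), on linear axes from 0. Six3 lies between 30.3 and 75.9 in Six3KO and between 164 and 299 in WT, Six3os1 runs the other way, and Esr1 is near 0 wherever Cre is absent.

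Across the transcriptome few genes differed beyond the spread between libraries. Of 13292 genes tested, edgeR called 1 higher (0.00752% of genes) and 0 lower (0%) at an adjusted p under 0.05. The called gene was Esr1, which had to differ as described above. At an unadjusted p under 0.05, 305 genes were higher (2.29%) and 160 lower (1.2%). DESeq2 on all 11 libraries called 17 genes higher and 3 lower (0.152% of the genes with an adjusted p). DESeq2 on the 6 libraries alone called 24 higher and 3 lower (0.201%), and 12 genes were shared by its 2 fits. The 3 lower genes on all 11 libraries were Six3, Akr1e1 and Hist1h2al. In simulated counts for the same groups, 2-fold changes were recovered for 59.3% of the changed genes and 4-fold changes for 90.7%. Genes there were drawn independently, many were changed at once, and those changed had a mean of at least 5 CPM. The spread of real libraries includes the uneven lens and mesenchyme tissue, which moves many genes together. That was not simulated, so these shares need not hold for the real libraries. Because a gene can enter the test through 1 group alone, the gene lists below are counted over 12918 genes that reached 0.922 CPM in at least 2 libraries of both groups. Among those, 1.79% were higher and 1.18% lower at an unadjusted p under 0.05, and the groups did not overlap for 2.81% (higher) and 3.74% (lower). Their median log2 fold change was -0.01.

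The genes with the smallest p among the higher ones included signalling, adhesion and neuronal genes. Filip1, whose product binds filamin, stood at 38.7, 56.4 and 62.3 CPM in WT and 118, 121 and 95.8 CPM in Six3KO (1.09 ± 0.21). Erbb4, a receptor tyrosine kinase for neuregulins, stood at 13.3, 17.8 and 16.6 CPM in WT and 35.04, 35.8 and 31.3 CPM in Six3KO (1.10 ± 0.23). Both genes held every Six3KO library at well above the WT range, and both rose in both DESeq2 fits (adjusted p = 0.00172 and 0.00106 for Filip1, 0.0189 and 2.9e-05 for Erbb4). Cdh13, which encodes T-cadherin, had a log2 fold change of 1.10 ± 0.24, and Stx3, a syntaxin of membrane fusion, 0.80 ± 0.17. Ebf2, a helix-loop-helix transcription factor, stood at 5.55, 7.17 and 3.82 CPM in WT and 12.3, 11.52 and 25.1 CPM in Six3KO.

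Th encodes tyrosine hydroxylase, the rate-limiting enzyme of dopamine synthesis. It stood at 11.41, 15.5 and 11.47 CPM in WT and at 41.0, 41.9 and 16.45 CPM in Six3KO, so rh026 lay just above the WT range and the other two far above it. Fam65b and Cttnbp2, named after their values were seen, stood at 23.0, 33.0 and 15.7 CPM against 77.4, 95.9 and 39.4 CPM, and at 16.7, 19.2 and 16.3 CPM against 28.1, 30.7 and 32.8 CPM. Fam65b rose in both DESeq2 fits (adjusted p = 0.0231 and 0.0342), and Cttnbp2 in the fit on the 6 libraries (adjusted p = 0.0062). Zfp365 stood at 7.58, 9.60 and 11.3 CPM in WT and at 14.1, 53.4 and 48.4 CPM in Six3KO, high in the 2 libraries that carry lens tissue. Without these 2 libraries its log2 fold change went from 2.02 to 0.57 (with an unadjusted edgeR p of 0.216), that of Plcb1, a phospholipase C, from 1.14 to 0.49 (with an unadjusted edgeR p of 0.145), and that of Cdh13 from 1.10 to 0.86. Abtb2 completed the set with 0.64 ± 0.14.

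Among the lower genes, Akr1e1, an aldo-keto reductase, stood at 23.3, 40.1 and 35.8 CPM in WT and at 13.4, 13.2 and 9.79 CPM in Six3KO (-1.44 ± 0.26). It fell in both DESeq2 fits (adjusted p = 0.00183 and 0.00113). Cxcr4, the receptor for the chemokine Cxcl12, stood at 32.4, 36.9 and 15.0 CPM in WT and at 12.3, 13.2 and 8.17 CPM in Six3KO, without overlap but with 1 WT library near them. The rest were smaller steps with tight groups. Mvk, mevalonate kinase of sterol synthesis, stood at 31.7, 29.8 and 32.6 CPM against 24.4, 23.9 and 21.7 CPM. Glul, glutamine synthetase, stood at 351, 319 and 302 CPM against 275, 265 and 248 CPM. Pgp (-0.48 ± 0.12), Txndc15 (-0.49 ± 0.14), Gkap1 (-0.41 ± 0.12) and Wrn, a DNA helicase (-0.32 ± 0.09), completed this set with the replication and histone genes described further on.

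Interferon response genes stood higher in part. Interferon sets off a relay in which Stat2, activated by kinases, works with Irf9 at a response element of genes such as Isg15, Bst2 and Oasl2. Of the 23 genes listed 15 were tested, but only 7 reached the expression cutoff in both groups. Of these 7, 3 were higher at an unadjusted p under 0.05 and 0 lower, against 1.79% and 1.18% of all genes, and their median log2 fold change was 1.71. The median was 2.14 without the 2 lens-carrying libraries.

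Irf9 stood at 10.003, 11.2 and 10.7 CPM in WT and at 46.8, 20.5 and 36.6 CPM in Six3KO (1.71 ± 0.48), and Oasl2, a relative of the antiviral oligoadenylate synthetases, at 1.25, 1.85 and 1.66 CPM against 9.85, 4.13 and 9.48 CPM (2.31 ± 0.84). Both rose in the DESeq2 fit on the 6 libraries (adjusted p = 0.00106 and 0.0116) but not on all 11 (adjusted p = 0.107 and 0.475). Ddx58, a sensor of foreign RNA, stood at 28.0 and 29.8 CPM in rh006 and rh026 but at 5.66 CPM in rh012, within the WT range of 1.73 to 8.60 CPM. The list was thus weakest in rh012. Stat2 stood at 19.4, 28.3 and 22.7 CPM in WT and 24.3, 24.3 and 25.4 CPM in Six3KO, and B2m, the light chain of MHC class I, at 54.3, 16.42 and 31.2 CPM against 32.7, 20.9 and 58.6 CPM. Ifit2 was similar (-0.22 ± 0.28). These 3 genes overlapped between the groups.

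The other 8 tested members did not reach the cutoff in both groups. A member that passed the filter only through libraries with Cre had to differ. Bst2 and Ifih1 also reached the cutoff in libraries without Cre. Bst2 did so in WT rh016 (1.02 CPM) and both Six6KO libraries (1.16 and 1.93 CPM), and Ifih1 in WT rh016 (1.09 CPM) and Six6KO rh020 (1.60 CPM). All 8 are a description by reads, with a ratio for Isg15 and Irf7. Isg15, a ubiquitin-like protein, had 1, 1 and 0 reads in WT and 38, 7 and 42 reads in Six3KO, a ratio of depth-scaled reads of 34.7 with an exact 95% interval of 9.31 to 291 that covers counting error only. Irf7 had 1, 1 and 0 reads in WT and 50, 5 and 22 in Six3KO (ratio 30.7, interval 8.21 to 258). Bst2, tetherin, had 13, 4 and 4 reads against 227, 50 and 156, and Usp18, which removes Isg15 from proteins, 2, 1 and 2 against 182, 19 and 52. Rtp4, Ifih1, Ifi35 and Ifi27 completed these 8. In all 8 genes the library rh012 held the fewest reads among the Six3KO libraries.

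Promoters of this list are shown because members of the list stood higher together and such genes are known to share an element. The core of the interferon-stimulated response element, taken as GAAA, then any 2 bases, then GAAA, was searched on both strands in the 250 bases before the RefSeq start (GRCm38.p6). It was found at 978 of 32851 starts (2.98%), and for 936 of 27025 genes (3.46%). Of 15 tested members 11 had a start in the table and 4 held a match. Capitals mark the matches, and overlapping matches run together. Each sequence is given 5′ to 3′ along its gene.
Isg15 (chr4:156200819-156201068, minus strand): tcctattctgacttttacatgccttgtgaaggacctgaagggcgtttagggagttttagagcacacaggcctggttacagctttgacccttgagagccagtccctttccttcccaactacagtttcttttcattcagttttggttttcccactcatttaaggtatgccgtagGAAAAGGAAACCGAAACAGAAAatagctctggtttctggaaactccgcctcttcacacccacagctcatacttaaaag
Bst2 (chr8:71537473-71537722, minus strand): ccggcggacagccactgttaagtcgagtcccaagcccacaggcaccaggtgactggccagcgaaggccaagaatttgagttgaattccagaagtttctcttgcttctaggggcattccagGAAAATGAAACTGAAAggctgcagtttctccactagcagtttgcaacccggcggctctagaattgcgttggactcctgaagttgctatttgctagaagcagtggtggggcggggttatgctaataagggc
Stat2 (chr10:128270248-128270497, plus strand): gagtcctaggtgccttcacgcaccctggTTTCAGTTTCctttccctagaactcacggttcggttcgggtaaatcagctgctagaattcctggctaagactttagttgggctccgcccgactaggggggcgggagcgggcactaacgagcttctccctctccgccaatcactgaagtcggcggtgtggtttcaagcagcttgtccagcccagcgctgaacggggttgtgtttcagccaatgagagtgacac
B2m (chr2:122147437-122147686, plus strand): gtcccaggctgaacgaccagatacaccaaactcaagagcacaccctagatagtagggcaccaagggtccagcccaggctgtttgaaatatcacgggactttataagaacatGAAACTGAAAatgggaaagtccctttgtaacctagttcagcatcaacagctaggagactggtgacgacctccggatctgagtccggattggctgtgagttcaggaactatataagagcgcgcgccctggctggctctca
Isg15 held 3 matches and Bst2 2, and neither gene reached the cutoff in both groups. Stat2 and B2m held 1 each and overlapped between the groups. None was found in this window for Irf9, Oasl2 and Ddx58, which reached the cutoff in both groups. A link between matches and levels was not tested. A match is a run of letters and not a measured binding site.

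The same list can be read in the Six6KO libraries, which have no Cre, and in the DKO libraries, which have it. Irf9 stood at 14.2 and 12.2 CPM in the Six6KO libraries rh007 and rh020, and at 49.4, 41.7 and 11.496 CPM in the DKO libraries rh010, rh011 and rh021. Esr1 stood at 50.6, 62.0 and 50.2 CPM in those 3 DKO libraries. In rh021 Irf9 was just above the WT range and Oasl2 (0.396 CPM) below it. Esr1 is a level of RNA, and Cre activity was not measured. Markers of macrophages and microglia stood higher as well. Of 16 such genes counted, 13 reached the cutoff in both groups, with a median log2 fold change of 0.60. At an unadjusted p under 0.05, against 1.79% and 1.18% of all genes, 3 of these 13 markers were higher and 0 lower. The summed level of all 16 ran from 43.0 to 90.4 CPM in WT and from 87.6 to 138 CPM in Six3KO. It was 61.3 and 127 CPM in Six6KO rh007 and rh020, and 184, 174 and 75.5 CPM in DKO rh010, rh011 and rh021. Six6KO rh020 thus lay within the Six3KO range and DKO rh021 within the WT range. No member was without a read in any library. Without the lens-carrying libraries, which leaves 1 Six3KO library, the median of the 13 was 0.77. With lens and mesenchyme scores as covariates it was 0.36, and at an unadjusted p under 0.05 in edgeR 0 markers were higher and 1 lower. Their part in the interferon result was not tested.

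**Figure D2:**
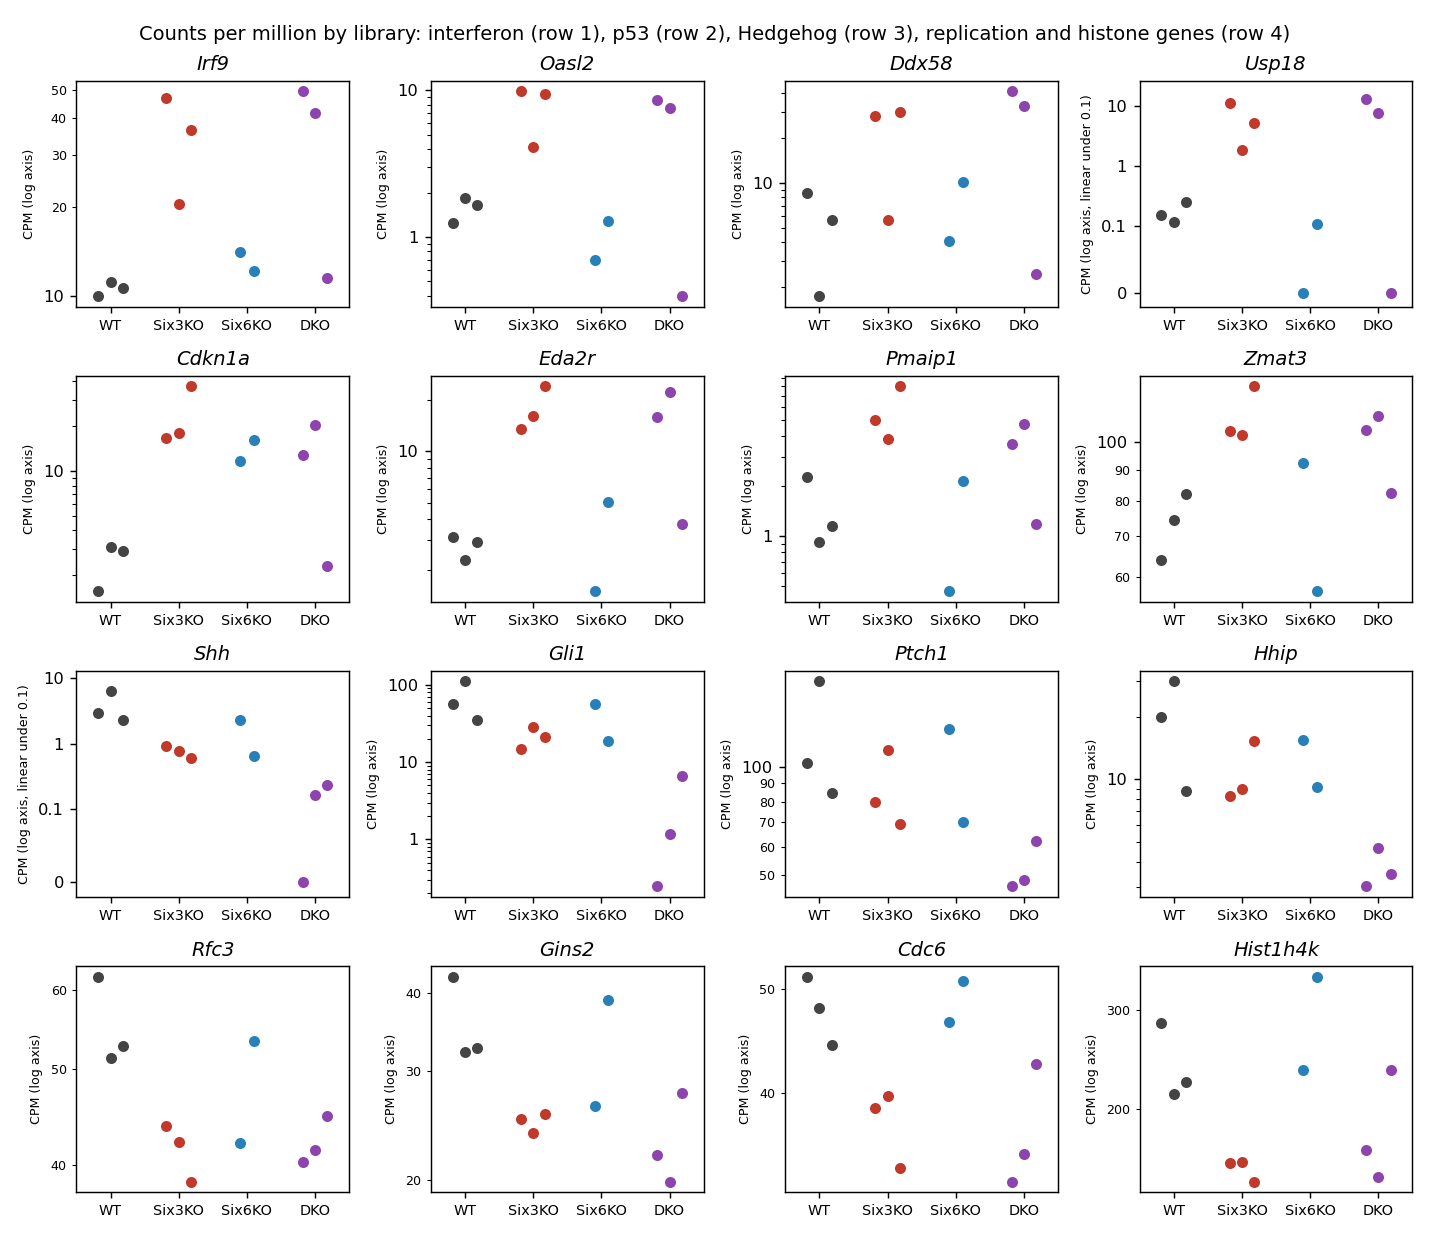
CPM by library on a log axis (linear below 0.1 where a library is at 0), for interferon, p53, Hedgehog, and replication and histone genes in rows. In the top row Irf9 lies between 20.5 and 46.8 in Six3KO and between 10.003 and 11.2 in WT, and 1 of the 3 DKO libraries lies near the WT level.

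Targets of p53 stood higher in part. The factor p53 is stabilised by DNA damage and other stress, and it switches on genes that halt the cell cycle or start cell death. All 22 tested genes of the 24 listed reached the cutoff in both groups. Of these, 19 had a log2 fold change above 0, as did 6198 of the 12918 genes at the cutoff. At an unadjusted p under 0.05, 7 were higher and 0 lower, against 1.79% and 1.18% of all genes. These same 7 were the ones without overlap between groups, against 2.81% of all genes on the higher side. The median was 0.27. Cdkn1a, the cell cycle inhibitor p21 (chromosome 17, 29090976 to 29100727, plus strand), stood at 1.56, 3.12 and 2.93 CPM in WT and at 16.7, 17.9 and 36.9 CPM in Six3KO (3.25 ± 0.71). The highest WT library lay far below the lowest Six3KO library. Eda2r, a receptor of the tumour necrosis factor family, stood at 3.13, 2.31 and 2.93 CPM against 13.6, 16.03 and 24.0 CPM (2.67 ± 0.63). Cdkn1a and Eda2r rose in both DESeq2 fits (adjusted p = 0.00183 and 5.7e-08 for Cdkn1a, 0.0195 and 8.5e-09 for Eda2r).

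Others of the 7 were Zmat3, a zinc finger RNA-binding protein (64.1, 74.6 and 82.1 CPM against 104, 103 and 123 CPM), the death gene Pmaip1 (2.27, 0.925 and 1.15 CPM against 4.99, 3.84 and 7.97 CPM) and Ccng1 (86.7, 61.3 and 55.6 CPM against 105, 113 and 177 CPM). Sesn2 had a log2 fold change of 0.77 ± 0.28 and Psrc1 of 0.31 ± 0.12. Mdm2, which turns p53 over and is itself a target, stood at 86.1, 93.2 and 95.4 CPM against 92.8, 104 and 90.1 CPM, and Bax at 37.3, 30.4 and 37.8 CPM against 37.5, 37.0 and 42.6 CPM. Without the lens-carrying libraries, which leaves only rh006 in Six3KO, the median of the 22 was 0.21. Cdkn1a was also at 11.7 and 16.2 CPM in the Six6KO libraries, which have no Cre, while Eda2r stood there at 1.51 and 5.03 CPM. In the DKO library rh021 they stood at 2.30 and 3.73 CPM, near WT.

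Genes of DNA replication stood slightly lower throughout. All 28 listed genes were tested, reached the cutoff in both groups and had a log2 fold change below 0, between -0.53 and -0.06, with a median of -0.28. At an unadjusted p under 0.05, 7 were lower and 0 higher, against 1.18% and 1.79% of all genes, and 9 had groups that did not overlap, against 3.74%. Gins2, a subunit of the replicative helicase complex, stood at 42.5, 32.1 and 32.6 CPM in WT and at 25.1, 23.8 and 25.5 CPM in Six3KO (-0.53 ± 0.18). Cdc6, which loads the helicase at origins, stood at 51.3, 48.0 and 44.3 CPM against 38.7, 39.7 and 34.0 CPM (-0.35 ± 0.12). Rfc3, of the clamp loader, stood at 61.9, 51.2 and 52.8 CPM against 43.8, 42.2 and 38.5 CPM (-0.41 ± 0.12). Each of these had no overlap. The other 4 of the 7 were Tyms, Gins3, Pola1 and Cdc45.

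Mitosis genes moved by a similar size with more overlap. All 26 had a log2 fold change below 0 (median -0.23). At an unadjusted p under 0.05, 1 was lower, against 1.18% of all genes. The groups did not overlap for 4, against 3.74% of all genes on the lower side. Bub1, a spindle checkpoint kinase, stood at 149, 153 and 130 CPM against 125, 120 and 105 CPM. Birc5 and the spindle motor Kif11 had log2 fold changes of -0.28 ± 0.13 and -0.28 ± 0.14. Genes of both lists are made together in cycling cells, so their members are not independent of each other. With lens and mesenchyme scores as covariates, the replication median was -0.15 and 1 of 28 genes was lower at an unadjusted p under 0.05. Without the lens-carrying libraries, which leaves only rh006 in Six3KO, 27 of 28 lay below 0 (median -0.19).

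Replication-dependent histone genes, a family added after its values were seen, stood lower by more. These genes are made in S phase and their messages mostly lack a poly(A) tail, and the ribosomal RNA removal used here keeps such messages. Of 56 that reached the cutoff in both groups 54 had a log2 fold change below 0, with a median of -0.62. At an unadjusted p under 0.05, 30 were lower, against 1.18% of all genes. The groups did not overlap for 38, against 3.74% of all genes on the lower side. Without the lens-carrying libraries, which leaves only rh006 in Six3KO, all 56 lay below 0 (median -0.55). Hist1h2al stood at 382, 182 and 347 CPM in WT and at 165, 156 and 119 CPM in Six3KO, Hist1h2bk at 318, 218 and 216 CPM against 165, 146 and 137 CPM, and Hist1h4k at 284, 213 and 223 CPM against 160, 161 and 148 CPM. The WT library rh016 was the highest for each of them. Hist1h2al fell in DESeq2 on all 11 libraries (adjusted p = 0.0308) and Hist1h4k on the 6 libraries (adjusted p = 0.0268). Hist1h2al is annotated as a processed pseudogene, and near-identical copies within this family can share reads, so single members are uncertain.

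Some targets of Sonic hedgehog stood lower in Six3KO, short of the adjusted threshold. Sonic hedgehog from ganglion cells binds Ptch1 on progenitors, which frees Smo, and Gli factors then switch on Gli1, Ptch1 and Hhip. Shh (chromosome 5, 28456815 to 28467256, minus strand) had 38, 55 and 18 reads in WT and 15, 8 and 6 in Six3KO, that is 2.97, 6.36 and 2.29 CPM against 0.912, 0.768 and 0.605 CPM. It passed the filter on low counts through libraries without Cre and did not reach the cutoff in both groups, so that it had to differ, and its values are a description alone. The read-out gene Gli1 stood at 57.0, 110 and 34.9 CPM in WT and at 14.7, 28.3 and 21.4 CPM in Six3KO, without overlap (-1.66 ± 0.80, with an unadjusted edgeR p of 0.0666). Hhip, a decoy that binds the ligand, stood at 19.9, 29.7 and 8.79 CPM against 8.33, 9.02 and 15.2 CPM, and Ptch1 at 102, 172 and 84.4 CPM against 79.8, 111 and 69.5 CPM.

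None of these 4 genes passed the adjusted threshold in edgeR or in either DESeq2 fit. Smo, Gli2, Gli3, Sufu and the co-receptors Cdon, Boc and Gas1 lay between -0.11 and 0.35 with overlapping groups. Over the 13 genes at the cutoff in both groups, which leaves out Shh, the median was 0.01. At an unadjusted p under 0.05, 1 of these was lower, against 1.18% of all genes. Without the lens-carrying libraries, which leaves only rh006 in Six3KO, the median was -0.10. The WT library rh023 was highest of its group for Shh, Gli1, Hhip and Ptch1 and rh024 lowest, so the genes vary together within a group as well. In DKO the levels were lower again, with Gli1 at 0.246, 1.16 and 6.66 CPM and Shh with 5 reads over the 3 libraries.

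**Figure D3:**
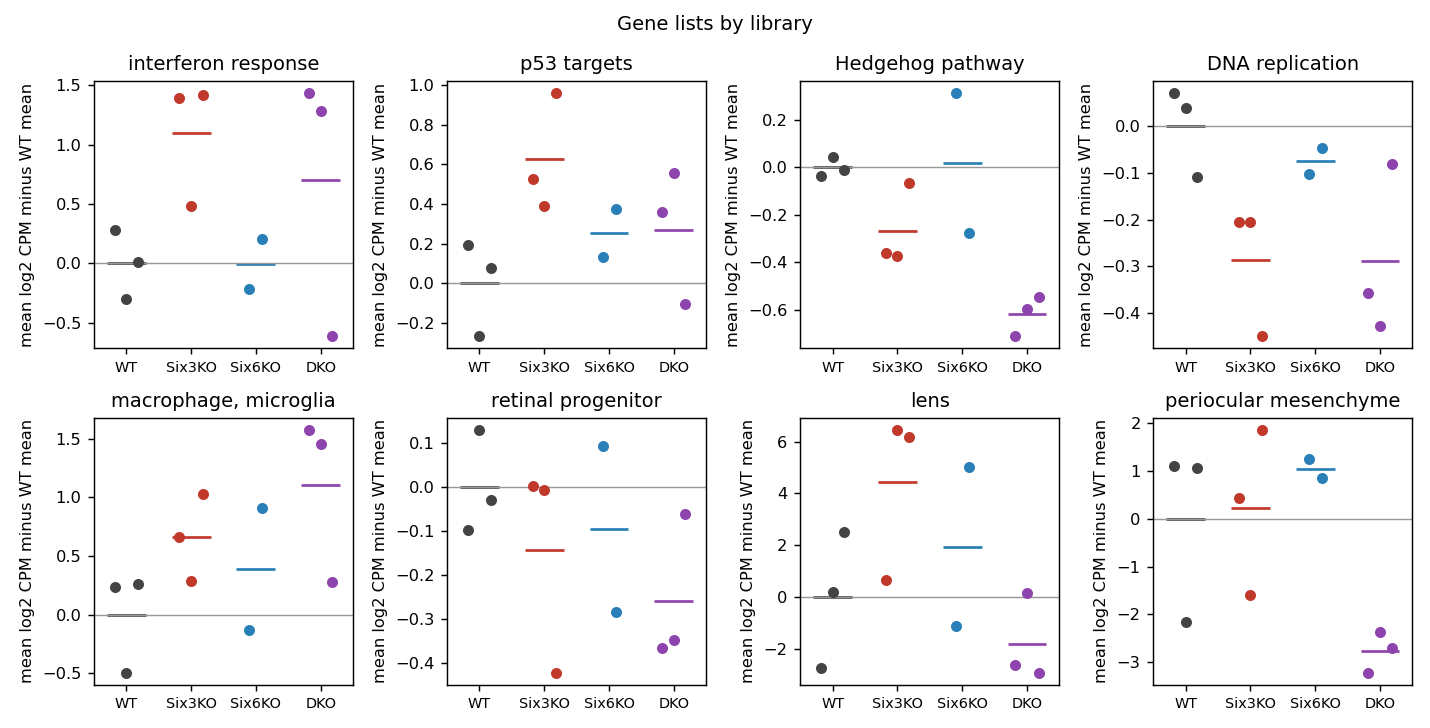
Mean log2 CPM of the list members that reached the cutoff in both groups, minus the WT mean, for each library (points) with the group mean (line). For interferon the Six3KO libraries lie at 1.40, 0.49 and 1.42 and the WT libraries at 0.28, -0.30 and 0.02, and the lens panel shows the 2 lens-carrying Six3KO libraries above 6.

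Progenitor identity genes were largely level. Of 26 genes 8 lay above 0 and 18 below, with a median of -0.10. The groups did not overlap for 2, against 3.74% of all genes on the lower side. At an unadjusted p under 0.05, against 1.18% of all genes, 1 was lower. That one was Hes1, a Notch effector that holds cells in the progenitor state, at 80.6, 96.7 and 88.1 CPM in WT and 71.4, 67.5 and 52.9 CPM in Six3KO (-0.47 ± 0.15). Mab21l1, needed for eye growth, stood at 128, 140 and 132 CPM against 124, 119 and 96.2 CPM. Gmnn, an inhibitor of re-replication, had -0.34 ± 0.18. Sox2, a factor of neural progenitors, stood at 128, 227 and 177 CPM against 185, 169 and 82.9 CPM, and rh026 alone lay below the WT range. This library also held the most mesenchyme.

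Genes of neuron production gave a like picture. The proneural and Notch list held 29 genes with a median of -0.08. At an unadjusted p under 0.05, this list had 1 member lower, again Hes1, and 0 higher, against 1.18% and 1.79% of all genes. Gadd45g (0.45 ± 0.28) and the Notch ligand Jag1 (0.59 ± 0.39) had its next smallest p values. Atoh7, which makes progenitors competent to become ganglion cells, stood at 99.2, 121 and 98.9 CPM against 129, 118 and 41.1 CPM. Ganglion cell genes (26, median -0.08) had 0 members at an unadjusted p under 0.05 in either direction, with Rbpms at -0.27 ± 0.16 and Irx3 at -0.64 ± 0.48. Photoreceptor precursor genes (13, median -0.31) had 0 as well, and Thrb, a cone receptor, stood at 72.3, 97.9 and 74.2 CPM against 67.0, 74.8 and 41.4 CPM. Otx2, which directs photoreceptor fate, stood at 105, 88.8 and 93.7 CPM against 88.7, 78.5 and 84.1 CPM, without overlap but with a log2 fold change of only -0.19 ± 0.14. Prom1 had -0.20 ± 0.15.

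Among amacrine and horizontal cell genes (18, median -0.02), 2 were higher at an unadjusted p under 0.05, against 1.79% of all genes. Bhlhe22, a factor of amacrine and bipolar cells, stood at 17.4, 25.7 and 16.44 CPM in WT and at 56.0, 42.6 and 17.96 CPM in Six3KO (0.97 ± 0.38). Prox1, a horizontal cell factor that lens fibres also use, stood at 27.0, 46.8 and 63.2 CPM against 38.0, 141 and 118 CPM, high in the lens-carrying libraries, and its log2 fold change of 1.12 was -0.27 without them. Calb2 had -0.94 ± 0.63.

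Patterning lists held few members past the threshold. The Wnt list held 22 genes with a median of 0.03. At an unadjusted p under 0.05 it had 1 member lower and 0 higher, against 1.18% and 1.79% of all genes. This was Lgr5, a receptor for R-spondins, at 22.8, 42.4 and 49.95 CPM against 23.3, 25.1 and 19.3 CPM (-0.76 ± 0.31), and the groups overlapped. The Wnt ligand Wnt5b had 0.53 ± 0.32. Rspo2, an R-spondin that did not reach the cutoff in both groups, stood at 7.47 CPM in rh026 and at 0.127 to 1.02 CPM in the other 5 libraries. Ciliary margin genes (24, median 0.02) had 0 at an unadjusted p under 0.05, with Wfdc1 at -0.68 ± 0.41, Bambi at -0.38 ± 0.30 and Zic1 at 0.30 ± 0.20. Optic stalk and ventral genes (14, median 0.23) had 0, with Pax2 at 0.55 ± 0.36, Ephb3 at 0.48 ± 0.37 and Vax1 at 0.73 ± 0.58. Dorsal genes (13, median -0.12) had 0, with Epha3 at 0.64 ± 0.33 and Tbx2 at -0.42 ± 0.22.

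FGF feedback genes (19, median -0.05) had 0 as well. Egr1, an immediate early gene, stood at 6.88, 6.24 and 6.37 CPM against 20.3, 5.66 and 17.9 CPM, and Fos at 1.48, 5.43 and 0.637 CPM against 8.52, 5.57 and 2.52 CPM. Dusp4, a phosphatase of MAP kinases, had -0.36 ± 0.22. Six3 relatives with their Eya and Dach cofactors (12 genes, median 0.07) had 0 members at an unadjusted p under 0.05. Eya4 had 0.40 ± 0.22, and Six2 had 1.44 ± 0.88, carried by rh026 (17.96 CPM), the library with the most mesenchyme. Patterning genes of other brain regions reached the cutoff in both groups in only 9 of 26 cases (median -0.12), and 0 passed an unadjusted p under 0.05.

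**Figure D4:**
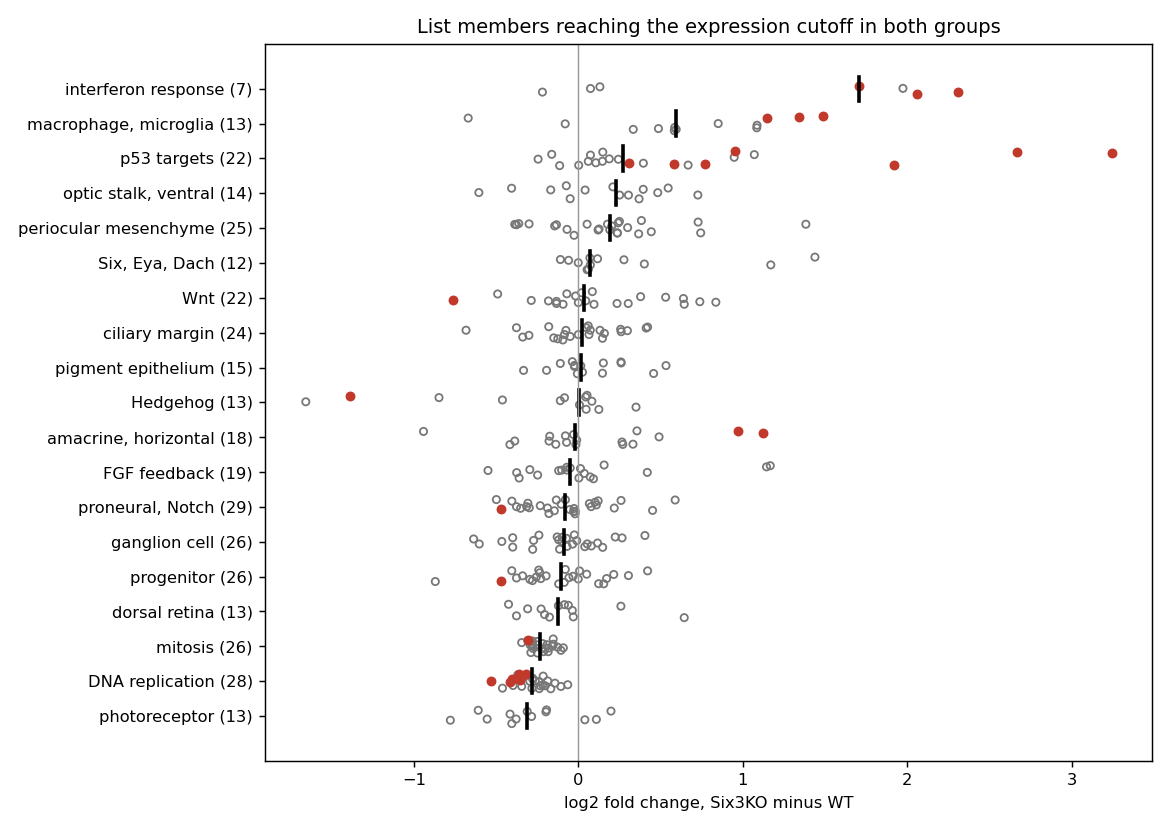
Log2 fold change, Six3KO minus WT, of list members at the cutoff in both groups (points, number in brackets), with list medians (bars) and members at an unadjusted p under 0.05 filled in red. All 28 replication and all 26 mitosis genes lie below 0, and the interferon median lies at 1.71.

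Lens genes were high in 2 of the 3 Six3KO libraries and in no WT library to the same level. Of 20 lens genes at the cutoff in both groups, all lay above 0 with a median log2 fold change of 5.09. At an unadjusted p under 0.05, 13 were higher, against 1.79% of all genes. The groups overlapped for all 20. Without rh012 and rh026, which leaves only rh006 in Six3KO, the median was -0.47. Cryaa, an alpha crystallin, stood at 0.547, 54.1 and 543 CPM in WT and at 88.0, 7900.1 and 6309 CPM in Six3KO. Cryba1 and Crybb1 had log2 fold changes of 5.14 ± 2.60 and 5.20 ± 2.37. The lens fibre gene Bfsp1 stood at 2.43, 111 and 58.0 CPM in Six3KO and the factor Maf at 26.1, 175 and 162 CPM, so neither stood out in rh006. Both rose in DESeq2 on all 11 libraries (adjusted p = 0.00183 and 0.0428), and Maf also on the 6 libraries (adjusted p = 0.04). Mesenchyme genes (25, median 0.19), vessel genes (17, median -0.12), pigment epithelium genes (15, median 0.02), red cell genes (6, median -0.87) and surface ectoderm genes (20, median -0.12) had 0 members at an unadjusted p under 0.05 in edgeR.

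The most abundant of these varied widely within both groups. Col3a1, a collagen, stood at 445, 91.1 and 399 CPM against 270, 80.3 and 1217 CPM, and Pmel, of pigment granules, at 816, 21.5 and 372 CPM against 437, 9.41 and 778 CPM. Hbb-y, an embryonic globin, stood at 1216, 1979 and 597 CPM against 756, 158 and 1072 CPM. Among macrophage and microglia genes, Aif1 stood at 1.09, 1.16 and 0.765 CPM against 2.01, 2.88 and 3.73 CPM (1.49 ± 0.41), C1qc at 4.53, 3.01 and 3.70 CPM against 8.70, 9.31 and 10.7 CPM (1.34 ± 0.51) and Laptm5 at 3.67, 2.54 and 3.57 CPM against 6.08, 6.14 and 9.58 CPM (1.15 ± 0.40). None of these 3 overlapped between groups, and C1qc rose in DESeq2 on the 6 libraries (adjusted p = 0.0307). The receptor Csf1r, the most abundant marker of these cells here, had 0.49 ± 0.39.

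A second Six3 loss, DKO against Six6KO, shares no library with the first and was set beside it. Both groups lack Six6, so the setting differs. In that comparison edgeR called 22 genes higher (0.166%) and 9 lower (0.0677%). The same difference had a log2 value of -1.67 ± 0.46 for Six3, 9.66 ± 0.40 for Esr1 and 1.32 ± 0.32 for Six3os1. Of the 12 genes named above for the smallest p on the higher side, Esr1 included, 9 also had a positive value there, against 46.9% of all genes, and 6 of these passed an unadjusted p under 0.05, as did 6.24% of all genes on the higher side and 8.57% on the lower. Of the 12 on the lower side, Six3 included, 9 had a negative value, against 53.1% of all genes, and 5 passed. Both comparisons add Cre and Six3 loss, so Esr1 and Six3 had to take the same side in each. Each count thus holds a gene whose outcome was fixed in advance. Among genes at the cutoff in both groups, 6.15% and 8% were past an unadjusted p of 0.05 there.

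Filip1 and Erbb4 rose there. Filip1 went from 120 and 118 CPM in Six6KO to 818, 794 and 535 CPM in DKO (2.59 ± 0.25). Erbb4 had 1.83 ± 0.27 and Cdh13 1.47 ± 0.26. Cxcr4 had -1.07 ± 0.39 and Hist1h2al -1.57 ± 0.27. Akr1e1 ran the other way, at 23.0 and 15.3 CPM in Six6KO and 38.9, 47.0 and 29.1 CPM in DKO, as did Gkap1 (0.55 ± 0.14) and Abtb2 (-0.60 ± 0.16). Cdkn1a had -0.23 ± 0.70, with Six6KO already high. Median log2 fold changes there, over the same list members, were 1.38 for interferon, 0.76 for macrophage, 0.04 for p53 and -0.22 for Hedgehog genes. They were -0.19 for replication, 0.0005 for mitosis (13 above 0 and 13 below) and -0.57 for histone genes. The test of the difference between the 2 effects called 0 genes higher (0%) and 0 lower (0%) in edgeR, with 521 (3.92%) and 807 (6.07%) at an unadjusted p under 0.05, and DESeq2 called 76 and 164. Across all 13292 genes the log2 fold changes of the 2 comparisons had a Spearman rho of -0.01, a description over genes that share libraries and unequal amounts of lens and mesenchyme. Among the genes at the cutoff in both groups the rho was 0.01.

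**Figure D5:**
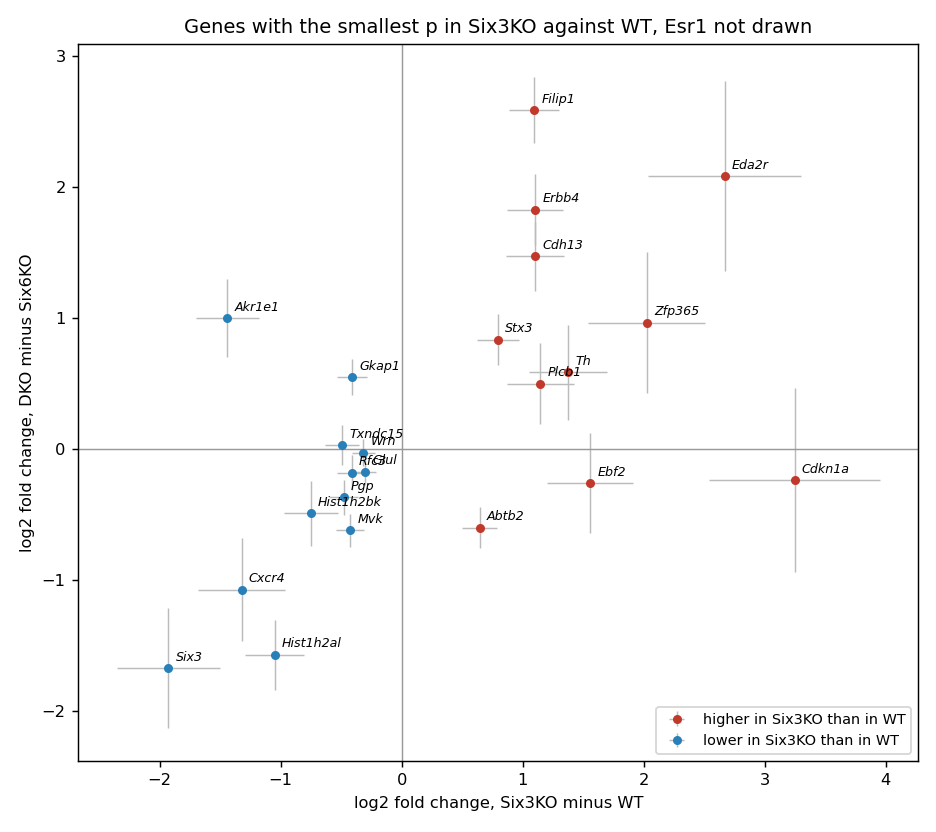
Log2 fold change of the 23 genes with the smallest p other than Esr1, in Six3KO minus WT (horizontal) and DKO minus Six6KO (vertical), with standard errors as bars. Filip1, Erbb4, Cdh13 and Eda2r lie above 1 on both axes, Six3, Cxcr4 and Hist1h2al lie below -1 on both, and Akr1e1 lies on opposite sides.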

How the data were processed

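Per the labels' protocols, RNA from pairs of E13.5 retinas was depleted of ribosomal RNA and sequenced. The authors deposited raw read counts per gene, 13498 genes in 11 libraries. Trim Galore 0.3.7, TopHat2 2.0.13, HTSeq 0.6.1 and the mm10 build are named in the submitters' processing notes. The strand setting of the counting was not given in the sources used here, nor were the annotation and the rule for keeping genes. The authors left out 1 Six6KO sample for high duplication, per the labels. Libraries carry numbers (rh016 and others) that match no replicate label, and they only name a library.

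Counts were tested with edgeR 4.0.16 (quasi-likelihood, robust, TMM scaling, filterByExpr with a minimum count of 10, 4 group means over 11 libraries), with Benjamini-Hochberg adjustment over 13292 genes and a call at an adjusted p under 0.05. The standard error is the log2 fold change divided by the square root of F. DESeq2 1.42.0 was an alternative. The scripts were tested on simulated data. Named genes were Six3, Six3os1, Six6, Esr1, the called genes, the 12 higher and 12 lower genes with the smallest p (mean of at least 5 CPM, groups without overlap, no predicted genes or pseudogene names), and the 3 genes of smallest p in each list. For tissues other than retina the 3 most abundant genes were added. Genes named outside this rule, chosen after their values were seen, were Irf9, Oasl2, Stat2, B2m, Irf7, Usp18, Ifih1, Ifi35, Ifi27, Ifit2 and Ddx58 (interferon), Pmaip1, Ccng1, Sesn2, Psrc1, Mdm2 and Bax (p53), Tyms, Gins3, Pola1, Cdc45 and Hist1h4k (replication), Ptch1, Hhip, Smo, Gli2, Gli3, Sufu, Cdon, Boc and Gas1 (Hedgehog), Rax, Pax6, Sox2 and Atoh7 (retina), and Fam65b and Cttnbp2. Some genes that the rule or a list takes in are not reported here. Members and lists were chosen with earlier results of these data known. Positions are from GENCODE vM21 (GRCm38) and promoters from RefSeq.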

Additional observations from a re-analysis of the deposited data

Results flagged for a closer look

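In 2 gene lists every Six3KO library lay on one side of the WT mean and every DKO library on the other side of the Six6KO mean. This rule takes the side alone, and in both lists the Six3KO and WT libraries overlapped. For Six3 relatives and cofactors WT lay at 0.181, -0.0536 and -0.128. For Six3 relatives with their Eya and Dach cofactors the mean difference was 0.263 on the log2 scale in Six3KO (libraries at 0.218, 0.00661 and 0.565) and -0.343 in DKO (-0.375, -0.303 and -0.351). For lens genes it was 4.44 in Six3KO (0.673, 6.45 and 6.19) and -3.73 in DKO (-4.57, -1.77 and -4.85), and lens tissue also differed between the 2 Six6KO libraries, at 0.0114 and 1.21% of reads. The difference between the comparisons was not tested for either list.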

How the results depend on the processing

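No paired analysis was possible because the library numbers match no replicate label. Of simulated 2-fold changes 59.3% were recovered, in genes drawn independently and without tissue differences shared between genes. The real libraries hold uneven lens and mesenchyme tissue, so this share need not hold for them. Between Six3KO and WT, DESeq2 called 17 genes higher and 3 lower, and 24 and 3 on the 6 libraries alone, against 1 and 0 in edgeR. Leaving out each library gave 1 to 1 higher and 0 to 0 lower. For DKO against Six6KO, DESeq2 called 307 and 362, the fit with lens and mesenchyme covariates 2 and 0, and leaving out each library gave 1 to 50 higher and 0 to 27 lower. The highest counts (50 and 27) came without the DKO library rh021, and the fits without rh010, rh011, rh007 and rh020 called 1 or 2 higher. For the difference of the effects DESeq2 called 76 and 164, and leaving out each library gave 0 to 3 higher, with 3 without rh021.

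Of 1437 values for 90 genes under the alternatives, 1371 kept their direction and their side of the threshold, 33 newly passed it and 33 changed sign, and the cause was not tested. Six6 gave 0.011 with relative log expression factors, 0.00022 without a filter, 0.010 with DESeq2, 0.0065 on 6 libraries and 0.0074 with both. It gave 0.30, 0.023 and 0.34 with lens, mesenchyme and both covariates, 0.25 without the lens-carrying libraries, 0.26 without rh026 and 0.17 without WT rh023. B2m gave -0.15 (lens covariate), -0.28 (both), -0.062 (without lens-carrying libraries), -0.35 (without rh026) and -0.17 (without rh023), with a range of -0.35 to 0.65 over the left-out libraries. In the order lens covariate, both covariates, without lens-carrying libraries, Jag1 gave -0.16, -0.18 and -0.47, Cryaa -0.38, -0.34 and -1.19, and Cryba1 -0.33, -0.26 and -0.90. Calb2 gave 0.025 with both covariates. Without lens-carrying libraries Gadd45g gave -0.10, Prox1 -0.27, Wnt5b -0.31, Ephb3 -0.11 and Crybb1 -0.47. Without rh026 Ephb3 gave -0.13, with a range up to 0.75 over the left-out libraries, and without WT rh016 Stat2 gave -0.048. DESeq2 on the 6 libraries was added after seeing the data.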

Other observations

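Myh8, a myosin heavy chain of developing muscle, stood at 0.156, 0.578 and 0 CPM in WT, at 8.58, 0.480 and 41.9 CPM in Six3KO, at 70.2 and 55.8 CPM in Six6KO, and at 0.246, 32.5 and 0.555 CPM in DKO. Both Six6KO libraries were high and all 3 WT libraries were near 0, while the Six3KO and DKO libraries differed among themselves. Myh8 rose in DESeq2 on the 6 Six3KO and WT libraries (adjusted p = 0.00877), but it did not reach the cutoff in both groups. It was named after its values were seen.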
